A study of Homo sapiens with 8 samples.

Results

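Genes of sterol and fatty acid synthesis were followed in PNT2 cells, an immortalized line of human prostatic epithelium, after depletion of the epithelial splicing factors ESRP1 and ESRP2. The set was a list of 33 named genes: enzymes from acetyl-CoA to cholesterol, the enzymes that build, elongate and desaturate fatty acids, and the proteins that control them. A gene counted as measured where a row of the array table was annotated to its symbol alone, which held for 27 of the 33 among 18495 rows in all. ACAT2, CYP51A1, HSD17B7, SREBF2 and ELOVL5 had rows annotated to several genes and FDFT1 had no named row, so these 6 have no value here.

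Cells on 4 arrays had received small interfering RNA against both splicing factors (siESRP), and cells on another 4 had received small interfering RNA against green fluorescent protein, which served as the control (siGFP). All cells were of the PNT2 line, and neither genotype nor time after transfection is distinguished between the groups in the labels. The arrays were Affymetrix human exon arrays read at gene level, so exon use was not measured, and whether a change in exon use moved any row was not tested. Array medians of the deposited intensities lay between 233 and 286. ESRP1 had normalized intensities of 568, 499, 660 and 599 in siESRP arrays, against 2232, 2527, 2617 and 2379 in siGFP arrays. The row shared by ESRP2 and NFATC3 had means of 148 ± 27.4 in siESRP and 531 ± 33.4 in siGFP (SD, n = 4 each). Epithelial markers were bright in both groups, with KRT8 at 6964 in siESRP and 6690 in siGFP and CDH1 at 3042 in siESRP and 2137 in siGFP. The luminal prostate markers KLK3, TMPRSS2 and HOXB13 had group means of 65.2 or less. Among leukocyte markers PTPRC, CD3E and LCP1 had means of 23.5 or less, while CD68, which many cell types express, was at 747 in siESRP and 551 in siGFP, CD14 at 112 in siESRP and 102 in siGFP, and CSF1R at 80.9 in siESRP and 154 in siGFP.

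Cells make cholesterol from acetyl-CoA through mevalonate, the isoprenoid diphosphates, squalene and lanosterol, followed by a series of reductions, demethylations and double-bond shifts in the endoplasmic reticulum. Fatty acids come from the same acetyl-CoA through malonyl-CoA and fatty acid synthase, and are then elongated and desaturated. Both branches are transcribed under the sterol regulatory element-binding proteins (SREBPs). The SREBPs are held in the endoplasmic reticulum by SCAP and the INSIG proteins when sterols are plentiful and released to the nucleus when sterols run low. SREBPs bind sterol regulatory elements and usually act together with NF-Y, which binds CCAAT boxes, and with Sp1, which binds GC boxes.

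Because the set is known for this shared promoter grammar, the RefSeq promoters of its genes were read from the assembly GRCh38.p14. Promoters were found for 29 of the 33 genes, all but ACAT2, FDFT1, SQLE and FASN, and each window ran from 250 bases before to 50 bases after the gene's start. The 250 bases before the start are shown for 4 genes. All 4 hold the letters CCAAT on either strand, which not every gene of the set does, so they do not represent their outcome groups. MSMO1 and STARD4 were higher in siESRP, MVK was lower, and the level of NSDHL did not pass the test in either direction. Capitals mark CCAAT or its reverse complement ATTGG.
MSMO1, chr4:165327419-165327668, plus strand: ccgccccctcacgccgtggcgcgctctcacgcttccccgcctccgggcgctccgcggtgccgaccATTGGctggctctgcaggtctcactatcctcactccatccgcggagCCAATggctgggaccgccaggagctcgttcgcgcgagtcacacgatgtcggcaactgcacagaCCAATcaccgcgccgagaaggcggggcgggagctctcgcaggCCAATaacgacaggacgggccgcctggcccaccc
STARD4, chr5:111512536-111512785, minus strand: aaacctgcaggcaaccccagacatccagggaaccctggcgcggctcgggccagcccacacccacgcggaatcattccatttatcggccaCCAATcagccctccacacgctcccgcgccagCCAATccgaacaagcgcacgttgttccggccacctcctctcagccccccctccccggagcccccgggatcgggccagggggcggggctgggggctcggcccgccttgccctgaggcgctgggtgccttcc
MVK, chr12:109573544-109573793, plus strand: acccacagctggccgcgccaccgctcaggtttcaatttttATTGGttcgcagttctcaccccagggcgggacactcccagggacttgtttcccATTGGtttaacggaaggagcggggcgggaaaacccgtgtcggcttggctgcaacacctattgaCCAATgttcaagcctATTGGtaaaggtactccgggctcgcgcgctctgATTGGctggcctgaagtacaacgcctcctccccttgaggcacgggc
NSDHL, chrX:152830813-152831062, plus strand: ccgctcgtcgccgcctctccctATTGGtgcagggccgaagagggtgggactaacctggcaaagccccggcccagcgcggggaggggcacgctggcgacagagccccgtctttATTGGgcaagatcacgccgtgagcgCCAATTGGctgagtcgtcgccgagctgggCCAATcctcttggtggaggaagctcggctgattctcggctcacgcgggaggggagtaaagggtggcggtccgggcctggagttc

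The CCAAT pentamer, searched like all motifs here on both strands, was present in 19 of the 29 windows (65.5%), against 35.7% of the 27305 RefSeq promoter windows of this length. It was found in 7 of 10 promoters of genes that were higher in siESRP, in both promoters of genes that were lower, and in 7 of 13 promoters of measured genes that did not pass. The 4 sequences above carry 4, 2, 5 and 5 copies in the order shown, and in NSDHL a pair of opposite copies overlaps. The GC box GGGCGG was present in 26 of 29 windows (89.7%), against 44.6% of all windows. All windows include those of genes not measured here, and no motif share was compared with that of similarly bright genes. The E-box CACGTG was present in 5 of 29 (17.2%), against 7.43% of all. These were SC5D and INSIG1 among the 10 higher genes, LSS and SCAP among the 13 that did not pass, and ELOVL5, which was not measured. The sterol regulatory element, searched as TCACNCCAC, was found in 1 of 29 windows (3.45%), that of SREBF2, against 1.15% of all windows. Only this pattern was searched, so a window without a match may still hold another form of the element. A match describes letters and not a bound site.

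Taken over the whole set, 10 of the 27 measured genes were higher in siESRP, 3 were lower and 14 did not pass the test (limma, adjusted p under 0.05 over all rows). The 13 called genes are 48.1% of the 27, beside 20.2% of all 18495 rows. The set was chosen with earlier results of these data known, so its shares are a description and not a test. By direction, 37.0% were higher and 11.1% lower, beside 10.9% and 9.31% of all rows. All 27 genes had a mean over the arrays above 100, and among the 11852 rows that bright the shares called were 14.9% higher and 13.5% lower. The median log2 difference of the 27 genes was 0.10, beside −0.02 over all rows, and the range ran from −0.78 to 1.25. The groups did not overlap in 10 genes with higher and 6 with lower siESRP values, 16 of 27 together, where 24.6% of all rows did the same. That share includes dim rows, and it was not taken for the bright rows alone. In bulk RNA, fewer cells with a transcript and less of it per cell cannot be told apart. The direction differed from gene to gene within the set.

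**Figure D1:**
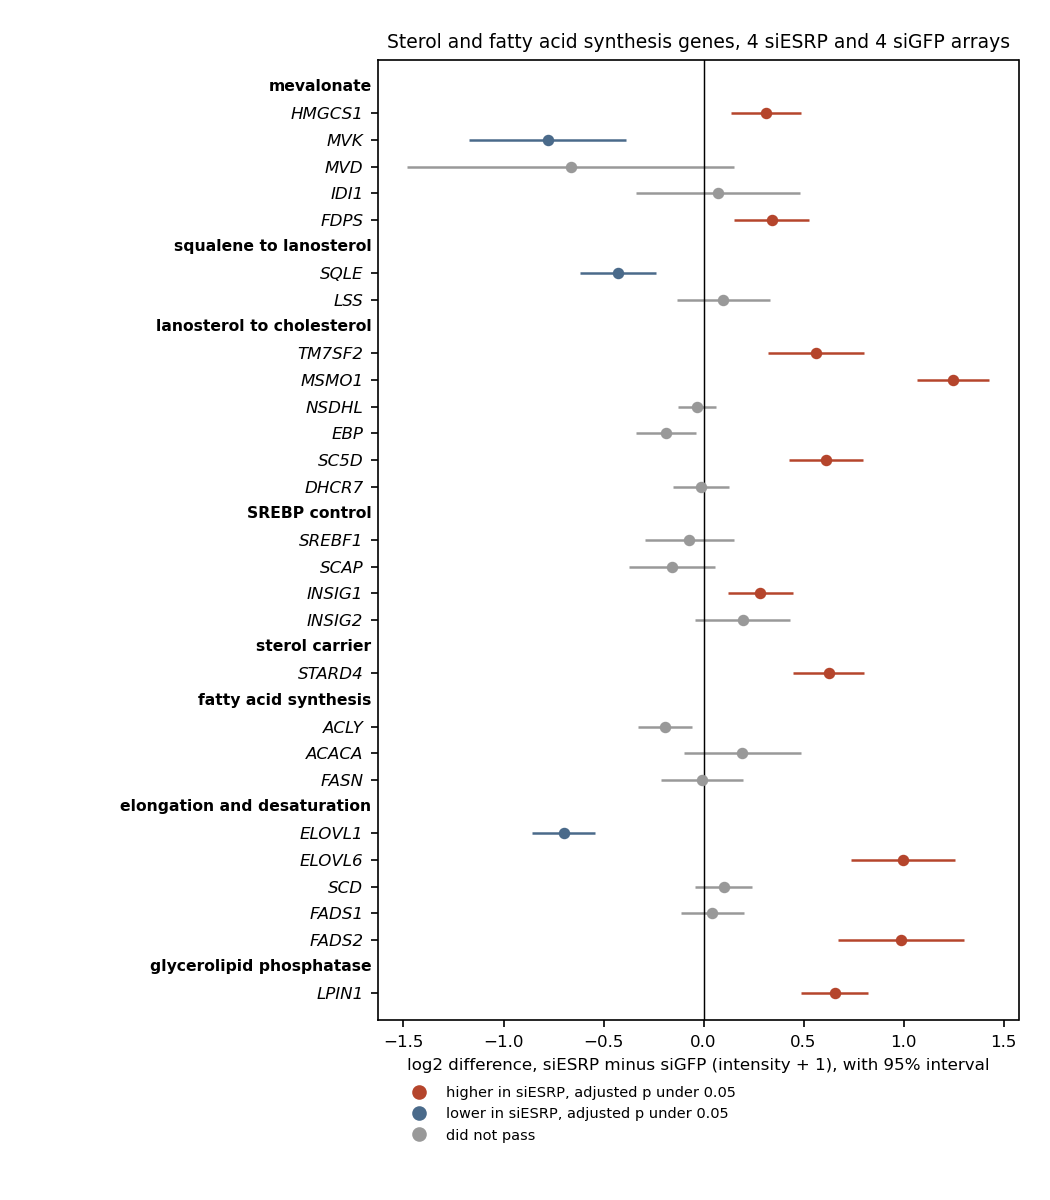
Log2 difference, siESRP minus siGFP, for the 27 measured genes of sterol and fatty acid synthesis, grouped by role, with 95% intervals from limma. Red marks the 10 genes higher in siESRP, blue the 3 lower and grey the 14 that did not pass; MSMO1 lies farthest to the right at 1.25 and MVK farthest to the left at −0.78.

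In the mevalonate segment 2 of 5 measured enzymes were higher, 1 was lower and 2 did not pass. HMGCS1, the cytosolic synthase that condenses acetyl-CoA units into HMG-CoA, had intensities of 2072, 2014, 2347 and 2298 in siESRP arrays, against 1611, 1803, 1883 and 1730 in siGFP arrays. FDPS, which makes farnesyl diphosphate, had 2624, 2592, 2956 and 2854 in siESRP, against 2001, 2438, 2228 and 2050 in siGFP. In both genes every siESRP array was above every siGFP array, but the increases were small: 1.24-fold for HMGCS1 (log2 difference 0.31 ± 0.07 SE, adjusted p = 0.0243) and 1.27-fold for FDPS (0.34 ± 0.08 SE, adjusted p = 0.0235). MVK, the kinase between them, went the other way, with 360, 423, 283 and 370 in siESRP, against 796, 532, 586 and 563 in siGFP. Its groups did not overlap, and it was 1.72-fold lower (log2 difference −0.78 ± 0.17 SE, adjusted p = 0.0168). MVD, which decarboxylates mevalonate diphosphate, also had all siESRP arrays below all siGFP arrays, with 70.4, 191, 199 and 191 in siESRP, against 266, 218, 207 and 271 in siGFP. Its first siESRP array lay far below the other 3, and the difference did not pass (−0.66, 95% interval −1.48 to 0.15). IDI1, the isopentenyl diphosphate isomerase, had overlapping groups, with 1825 to 2659 in siESRP and 1833 to 2643 in siGFP.

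The calls of the mildly higher genes were fragile. HMGCS1 no longer passed without siESRP replicate 4 (adjusted p = 0.0661), siGFP replicate 1 (0.0551) or siGFP replicate 4 (0.0637). FDPS no longer passed without siESRP replicate 3 (0.0507), siESRP replicate 4 (0.0636), siGFP replicate 1 (0.0562) or siGFP replicate 4 (0.0640). On the intensities as deposited, without scaling between arrays, neither passed (limma adjusted p = 0.210 for HMGCS1 and 0.170 for FDPS), nor did MVK (0.0738). With arrays scaled to a common median, HMGCS1 had an adjusted p of 0.0759 and FDPS of 0.0568.

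Between squalene and lanosterol, SQLE was lower. This squalene epoxidase, a rate-controlling step after HMG-CoA reductase, had 2293, 2242, 2763 and 2290 in siESRP, against 3114, 3427, 3302 and 3017 in siGFP. The third siESRP array was the highest of its group and still below all 4 siGFP arrays, and the level was 1.34-fold lower (log2 difference −0.43 ± 0.08 SE, adjusted p = 0.0109; 0.122 on the deposited intensities). LSS, the cyclase that forms lanosterol, had overlapping groups of 1132 to 1435 in siESRP and 1055 to 1335 in siGFP, and its difference of 0.10 did not pass (95% interval −0.13 to 0.33).

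Past lanosterol, 3 of 6 measured enzymes were higher and none passed in the lower direction. The largest difference of the whole set was that of MSMO1, a methylsterol oxidase that takes part in removing methyl groups from lanosterol products. MSMO1 had 3010, 2707, 2826 and 2695 in siESRP, against 1170, 1217, 1309 and 1046 in siGFP. Even the lowest siESRP array lay far above the highest siGFP array, and the level was 2.37-fold higher (log2 difference 1.25 ± 0.08 SE, adjusted p = 0.000162). SC5D, the sterol desaturase of the lathosterol step, had 862, 892, 711 and 823 in siESRP, against 518, 568, 535 and 523 in siGFP, and was 1.53-fold higher (0.61 ± 0.08 SE, adjusted p = 0.00225). TM7SF2, a sterol reductase, had 1335, 1645, 1322 and 1355 in siESRP, against 946, 991, 833 and 1058 in siGFP. Its second siESRP array stood above the other 3, and the gene was 1.48-fold higher (0.56 ± 0.10 SE, adjusted p = 0.00888). These 3 genes passed under all 15 alternative fits run for each gene.

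The other 3 enzymes of this segment did not pass. NSDHL, the dehydrogenase that follows MSMO1 in the same demethylation, had 1431, 1430, 1365 and 1374 in siESRP, against 1489, 1403, 1393 and 1439 in siGFP. The groups overlapped, and the 95% interval of its log2 difference ran from −0.13 to 0.06. DHCR7, the reductase of the last step, averaged 3502 ± 206 in siESRP and 3532 ± 165 in siGFP (SD, n = 4 each; interval −0.15 to 0.13). EBP, the sterol isomerase, had 1881, 1991, 2014 and 1937 in siESRP, against 2491, 2207, 2120 and 2101 in siGFP. Its groups did not overlap, yet the log2 difference of −0.19 (95% interval −0.34 to −0.04) did not pass after adjustment (adjusted p = 0.0847).

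Among the control proteins, INSIG1 was the gene that passed, of 4 measured. INSIG1, the retention protein that is itself induced when SREBP is active, had 1677, 1709, 1907 and 1683 in siESRP, against 1350, 1432, 1582 and 1365 in siGFP. Every siESRP array was above every siGFP array, at 1.22-fold (log2 difference 0.28 ± 0.07 SE, adjusted p = 0.0284). Its call was the weakest of the 13 and was lost without any of siESRP replicates 1, 2 and 4 (adjusted p = 0.0555, 0.0587 and 0.0546) or siGFP replicates 1, 2 and 4 (0.0690, 0.0647 and 0.0750). It was also lost on the deposited intensities (0.259) and with median scaling (0.103). Its paralogue INSIG2 ranged from 1563 to 1840 in siESRP and from 1326 to 1749 in siGFP and did not pass (0.20, interval −0.04 to 0.43). SREBF1, which encodes the SREBP best known for fatty acid genes, had 250, 270, 285 and 328 in siESRP, against 313, 299, 267 and 306 in siGFP. SCAP, the escort protein of the SREBPs, averaged 1024 ± 118 in siESRP and 1140 ± 76.4 in siGFP. The groups overlapped in both, with log2 differences of −0.07 for SREBF1 and −0.16 for SCAP.

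STARD4, a soluble carrier that moves cholesterol between membranes, had 940, 861, 911 and 921 in siESRP, against 647, 535, 631 and 548 in siGFP. The groups stood well apart, at 1.54-fold (log2 difference 0.63 ± 0.08 SE, adjusted p = 0.00182). On the deposited intensities the log2 difference was 0.62 with an adjusted p of 0.0545.

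**Figure D2:**
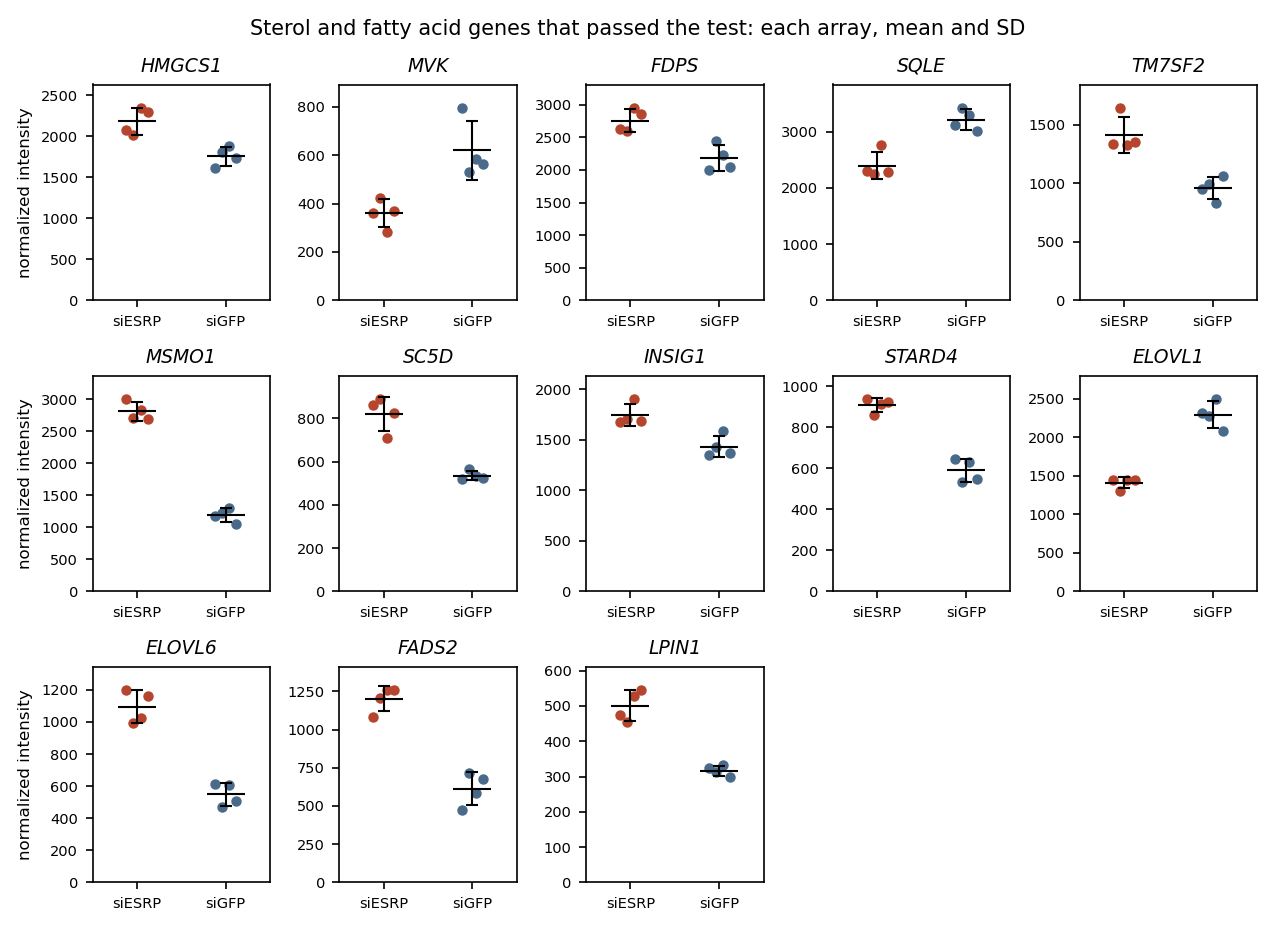
Normalized intensity on each array for the 13 genes that passed the test, siESRP on the left and siGFP on the right of each panel, with the group mean and SD in black and the axis starting at 0. No panel shows overlapping groups; MVK, SQLE and ELOVL1 are lower in siESRP and the other 10 are higher.

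The core of fatty acid synthesis did not pass in either direction. ACLY, which frees cytosolic acetyl-CoA from citrate, had 2722, 3021, 2557 and 2794 in siESRP, against 3086, 3245, 3095 and 3239 in siGFP. All siESRP arrays were below all siGFP arrays, with a log2 difference of −0.19 and an adjusted p of 0.0574, the nearest to the threshold of the genes that did not pass. It passed without siESRP replicate 2 (adjusted p = 0.0271), with a trended and robust variance (0.0427) and with intensities floored at 20 (0.0421). FASN, the fatty acid synthase, averaged 870 ± 94.1 in siESRP and 873 ± 49.8 in siGFP (SD, n = 4 each), with an interval of −0.21 to 0.20. ACACA, the acetyl-CoA carboxylase, ranged from 1027 to 1190 in siESRP and from 757 to 1122 in siGFP (log2 difference 0.19, interval −0.10 to 0.49).

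The enzymes that modify the finished chain diverged. ELOVL6, which elongates palmitate, had 1201, 993, 1023 and 1160 in siESRP, against 612, 471, 606 and 508 in siGFP, and was 2.00-fold higher (log2 difference 1.00 ± 0.11 SE, adjusted p = 0.00135). ELOVL1, which elongates saturated chains into the very-long-chain range, had 1445, 1306, 1444 and 1448 in siESRP, against 2317, 2271, 2499 and 2086 in siGFP, and was 1.62-fold lower (−0.70 ± 0.07 SE, adjusted p = 0.000734). On every siESRP array ELOVL6 was above and ELOVL1 below its siGFP range. FADS2, the desaturase that opens polyunsaturated fatty acid synthesis, had 1082, 1209, 1261 and 1260 in siESRP, against 476, 716, 584 and 677 in siGFP. It was 1.98-fold higher (0.99 ± 0.13 SE, adjusted p = 0.00290), and no siESRP array fell within the siGFP range. FADS1, the desaturase that acts later in the same pathway, ranged from 1940 to 2194 in siESRP and from 1836 to 2099 in siGFP (0.04, interval −0.11 to 0.20). SCD, which makes monounsaturated fatty acids, ranged from 2318 to 2532 in siESRP and from 2079 to 2455 in siGFP (0.10, interval −0.04 to 0.24).

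LPIN1, a phosphatidic acid phosphatase of glycerolipid synthesis that also acts as a transcriptional coactivator, had 474, 454, 527 and 546 in siESRP, against 323, 312, 333 and 299 in siGFP. The groups were separate, at 1.57-fold (log2 difference 0.66 ± 0.07 SE, adjusted p = 0.00131). LPIN1, ELOVL1, ELOVL6 and FADS2 each passed under all 15 alternative fits.

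Related genes of the set are set side by side as the within-array log2 ratio of 2 genes of a family. The 5 pairs were formed after the gene values were known, so these ratios are a description with no test. The ratio of ELOVL6 to ELOVL1 was −0.37 ± 0.10 in siESRP and −2.07 ± 0.15 in siGFP (SD, n = 4 each), a difference of 1.70. The ratio of FADS2 to FADS1 differed by 0.94 between siESRP and siGFP, that of MSMO1 to SC5D, which belong to the same hydroxylase superfamily, by 0.64, and that of the sterol reductases TM7SF2 and DHCR7 by 0.58. In these 4 pairs no siESRP array fell in the siGFP range. The ratio of INSIG1 to INSIG2 was 0.03 ± 0.08 in siESRP and −0.06 ± 0.21 in siGFP, a difference of 0.09 with overlapping groups.

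**Figure D3:**
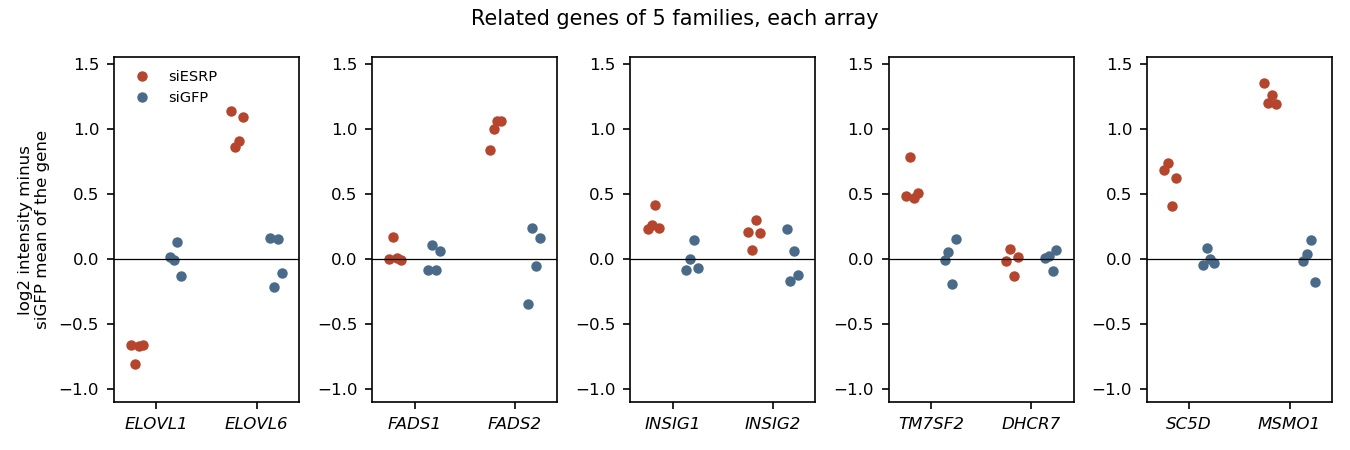
Log2 intensity on each array minus the siGFP mean of the same gene, for 5 pairs of related genes, siESRP in red on the left of each gene and siGFP in blue on the right. ELOVL1 and ELOVL6 separate in opposite directions, FADS2 and TM7SF2 separate from siGFP where FADS1 and DHCR7 overlap, MSMO1 and SC5D both lie above siGFP, and INSIG1 and INSIG2 lie close together.

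Lipid genes outside the set were read from lists of the same pathways. Of the listed genes 74 were measured, of which 15 were higher in siESRP, 9 were lower and 50 did not pass. The shares of 20.3% higher and 12.2% lower stand beside 10.9% and 9.31% of all rows, or 14.9% and 13.5% of rows with a mean of at least 100. These lists were also chosen with earlier results of these data known. Among other sterol synthesis genes 1 of 4 passed: LBR, which carries the same sterol reductase activity as TM7SF2 besides its role in the nuclear lamina, was 1.74-fold higher at 2850 ± 188 in siESRP and 1641 ± 149 in siGFP (SD, n = 4 each; adjusted p = 0.000960). A second, dim LBR row, with means of 39.0 in siESRP and 42.6 in siGFP, did not pass. Of 9 genes of SREBP processing and INSIG-linked degradation 1 passed, a share of 11.1% that is close to that of all rows: ERLIN1, a membrane protein of the degradation complex, was 1.52-fold higher (adjusted p = 0.0128).

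Uptake and storage genes held some of the largest differences. Of 9 measured uptake and trafficking genes 3 were higher and 2 lower. The share called was 55.6%, and 28.6% for the efflux and esterification genes below, beside 20.2% of all rows. SCARB1, the high-density lipoprotein receptor, had means of 928 ± 63.2 in siESRP and 288 ± 5.17 in siGFP and was 3.21-fold higher (adjusted p = 3.7e-05). LRP8, a lipoprotein receptor family member, was 2.03-fold higher, and LIPA, the lysosomal acid lipase, was 1.32-fold higher. MYLIP, the ligase that degrades lipoprotein receptors, was 1.29-fold lower, and NPC1, the lysosomal cholesterol exporter, was 1.22-fold lower with an adjusted p of 0.0491. Of 7 genes of efflux and esterification, SOAT1, which esterifies cholesterol, was 2.08-fold higher at 1773 ± 68.1 in siESRP and 853 ± 55.5 in siGFP (adjusted p = 0.000115). ABCA1, the cholesterol efflux pump, was dim, with means of 80.1 in siESRP and 44.2 in siGFP (adjusted p = 0.00644).

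Fatty acid genes beyond the set were also mixed. Of 4 acyl-CoA synthetases 3 were higher: ACSL5 by 2.25-fold, ACSL1 by 1.51-fold and ACSL4 by 1.31-fold, while ACSL6 was near background at 22.8 in siESRP and 22.9 in siGFP. Of 7 other elongation and desaturation genes, SCD5 was 1.28-fold higher and ELOVL2 was 1.69-fold lower. Of 9 glycerolipid genes, DGAT2, which makes triglyceride, was 1.31-fold higher, while the acyltransferases GPAM and GPAT3 were 1.48-fold and 1.19-fold lower and the lipid droplet coat gene PLIN2 was 1.30-fold lower. Of 11 fatty acid oxidation genes, HADHA and DECR1 were 1.37-fold and 1.26-fold higher and ACADM was 1.23-fold lower. Of 8 genes of non-sterol isoprenoid use, COQ2 and FNTA were 1.41-fold and 1.30-fold lower and FNTB was 1.22-fold higher. Beside 20.2% of all rows, the shares called were 75% of acyl-CoA synthetases, 44.4% of glycerolipid genes and 37.5% of isoprenoid genes. For other elongation and desaturation the share was 28.6% and for oxidation 27.3%. Among rows with a mean of at least 100, 14.9% were called higher and 13.5% lower, so the last 2 shares are not set apart from the background. None of 6 fatty acid supply genes passed in limma. At an unadjusted limma p under 0.05 there were 3 of 6. The carboxylase ACACB (0.24) and ME1 (0.25) had positive log2 differences and MLXIPL (−0.29) a negative one. Unadjusted p-values of this size were common: that of MLXIPL, 0.0322 in limma, ranked 5312 among the 18495 rows. All fold changes in this and the previous 2 paragraphs that carry no p had an adjusted p of at most 0.0423.

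**Figure D4:**
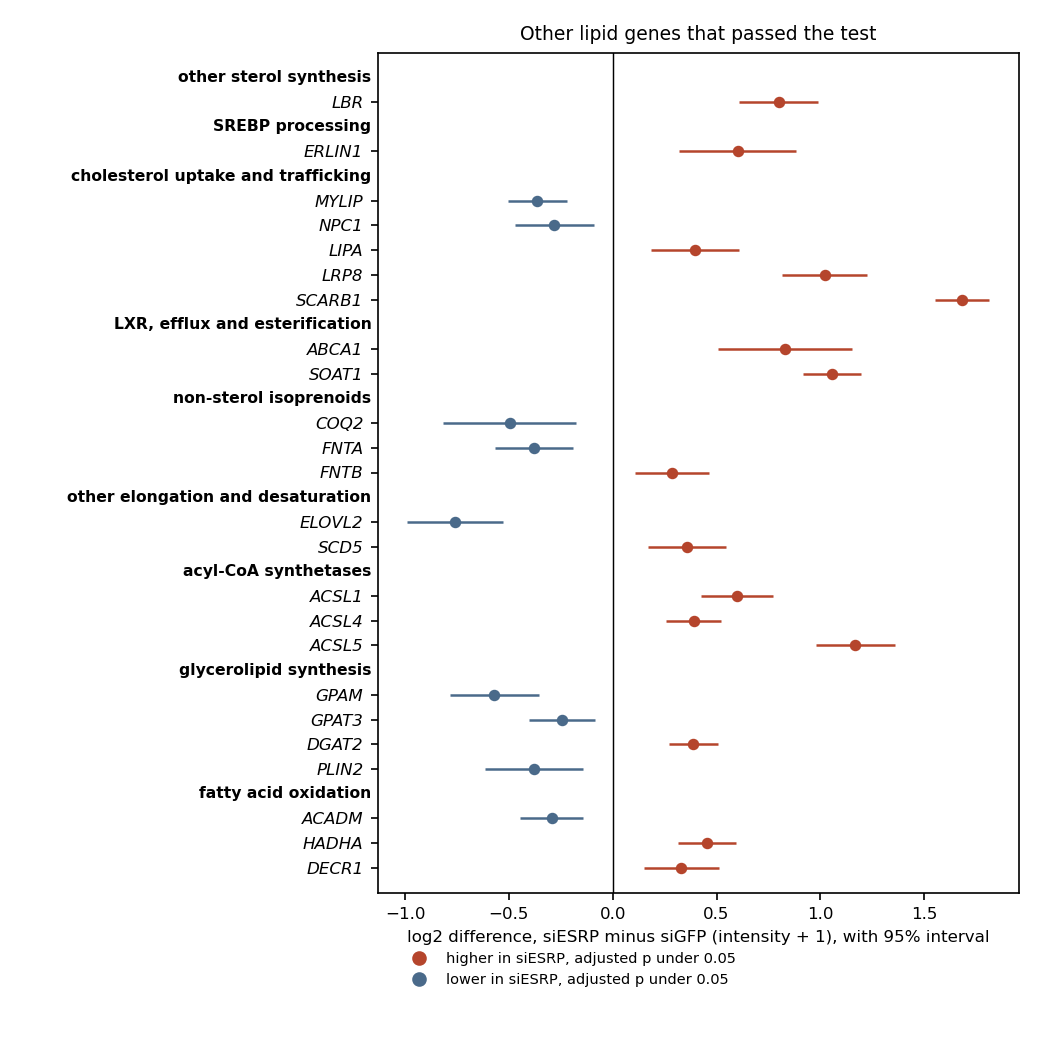
Log2 difference, siESRP minus siGFP, with 95% intervals from limma, for the 24 lipid genes outside the set that passed the test, grouped by list. The 15 genes in red are higher in siESRP, with SCARB1 farthest to the right at 1.68, and the 9 in blue are lower, with ELOVL2 farthest to the left at −0.76.

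Markers of other cell types were read beside these genes. Of 4 measured adipocyte markers 1 passed: PPARG, a nuclear receptor of lipid storage that epithelial cells also express, had 1365, 1236, 1327 and 1573 in siESRP, against 638, 631, 781 and 663 in siGFP, and was 2.03-fold higher (adjusted p = 0.000772). The summed level of the 4 markers was 1437 to 1760 in siESRP arrays and 834 to 1016 in siGFP arrays, and PPARG made up most of it. The log2 differences of ADIPOQ (−0.16), PLIN1 (−0.35) and FABP4 (−0.29) were negative and did not pass, and FABP4 was at 2.30 in siESRP and 2.56 in siGFP. The mean log2 deviation of the 4 markers from siGFP overlapped between the groups, at −0.28 to 0.53 in siESRP arrays and −0.52 to 0.37 in siGFP arrays. This mean includes FABP4, whose intensities ran from −0.75 to 7.5 in siESRP and from −1.12 to 5.25 in siGFP. Log2 values so near the floor vary widely, so the overlap says little about the brighter markers. Of 5 hepatocyte markers none passed in limma (0 of 5 also at an unadjusted p under 0.05), with ALB at 14.1 in siESRP and 14.4 in siGFP. Of 9 epithelial markers CDH1, KRT18 and KRT19 were higher, or 33.3% beside 10.9% of all rows and 14.9% of rows with a mean of at least 100. EPCAM (−0.11), KRT7 (−0.27) and DSP (−0.10) had negative log2 differences that did not pass, without overlap of the groups for KRT7. KRT8 (0.06), CLDN4 (0.17) and CLDN7 (0.33) had positive ones that did not pass, without overlap for CLDN4 and CLDN7. The summed level of the 9 was 31144 to 32318 in siESRP arrays and 28517 to 29817 in siGFP arrays. Of 7 fibroblast markers COL1A1 was lower, of 6 leukocyte markers CD68 was higher and CSF1R lower, and of 7 endothelial markers CDH5 was higher and TEK lower. TEK was dim, with means of 22.1 in siESRP and 30.25 in siGFP. The shares called were 14.3% of fibroblast, 33.3% of leukocyte, 28.6% of endothelial and 25% of adipocyte markers, beside 20.2% of all rows. The part of these markers in the lipid gene differences was not tested.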

How the data were processed

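RNA from 8 PNT2 samples was measured on exon arrays, 1 array per sample, with groups and replicate numbers taken from the titles. The authors deposited linear intensity values, 1 per transcript cluster. For their background correction, probe summary, scaling and genome build, nothing was given in the sources used here. Between 2.70% and 4.02% of intensities per array lie below 0, and no detection call was used.

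Linear intensities were brought to 1 distribution by quantile normalization. For the fit they were floored at 0, and their log2(value + 1) was fitted with limma 3.58.1 in R 4.3.3 (lmFit, eBayes, no covariate, two-sided). P-values were adjusted by Benjamini-Hochberg over 18495 rows with a threshold of 0.05. Adjusted p-values of genes are limma's. Means ± SD are normalized intensities without the floor, and folds are on the log2(value + 1) scale. The steps were tested on simulated data. Symbols come from GEO's platform annotation, updated through Entrez IDs to RefSeq: 14577 rows had 1 symbol, 2849 several and 1069 none. Where several rows named 1 gene, the brightest was used.

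The genes and lists were chosen with earlier results of these data known. All genes of the set are accounted for, those past the threshold with each array's value, and each further list names at most 4 genes by smallest p; NPC1 and list members that did not pass were named after their values were seen. The labels do not say whether samples were separate cultures, so the spread behind each p-value may be only technical. The number of arrays limits the precision. The alternatives were other scalings, a filter on dim rows, another pseudocount or floor, another variance model, the replicate number as a block, and leaving out each array.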

Additional observations from a re-analysis of the deposited data

Results flagged for a closer look

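Within each group of 4 arrays, the gap between the highest or lowest array and its neighbour was set against Dixon's 95% critical value for the 27 genes. In 7 of 54 groups 1 array stood apart, where chance gives about 1 in 20, or 2.7. In siESRP, replicate 1 was low for MVD (ratio of gap to range 0.935, at 70.4 with the next array at 191). Replicate 2 was low for ELOVL1 (0.971) and high for FADS1 (0.912) and TM7SF2 (0.897). Replicate 3 was high for SQLE (0.901) and INSIG1 (0.863). In siGFP, replicate 3 was low for FASN (0.833, at 799 with the next array at 889). Of these genes, the INSIG1 call ended when single arrays were left out, but it held without replicate 3 of either group; ELOVL1, SQLE and TM7SF2 kept their calls without any single array.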

How the results depend on the processing

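Of the 13 genes that passed, 7 (MSMO1, SC5D, TM7SF2, ELOVL1, ELOVL6, FADS2 and LPIN1) passed under all 15 alternative fits of each gene, and none of the 13 changed direction. Among the 14 others, ACLY passed under 3 alternatives. On the deposited intensities, 1673 of all rows were called against 3729 as reported, with 6 genes of the set higher and 1 lower against 10 and 3, and 9 of the other lipid genes higher and 2 lower against 15 and 9. HMGCS1, MVK, FDPS, SQLE, INSIG1 and STARD4 were the calls lost; the cause was not tested. The median over all rows was −0.02 as reported, −0.10 on the deposited intensities and −0.11 with median scaling, where 7 genes were higher and 3 lower. Leaving out 1 array gave 7 to 10 higher and 3 to 4 lower genes, and 2719 to 3793 called rows. The titles number the replicates 1 to 4 in both groups. Deviations from the group means correlated at 0.15, 0.09, −0.27 and −0.02 between same-numbered arrays. The highest correlation with a siGFP array of another number was 0.51, 0.21, 0.11 and 0.10 for siESRP replicates 1 to 4. No siESRP array correlated best with the siGFP array of its own number. Whether arrays of the 2 groups shared a culture or a batch was not tested. With the replicate number as a block, 2292 rows, 8 higher and 2 lower genes were called, without HMGCS1, FDPS and MVK. The differences of the 5 family ratios moved by less than the larger of the 2 group SDs under other scalings, a pseudocount of 16 and leaving out each array, alternatives chosen after seeing the data. The number of arrays limits what could be detected.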
